A study of Mus musculus with 6 samples.

Results

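The endothelin and angiotensin system genes described here are Edn1, Ece1, Ednra and Ednrb of the endothelin axis and Agt, Ace and Agtr1a of the renin-angiotensin axis. They are 7 of the 48897 genes in the deposited table, were chosen by name, and were all present and passed the filter on low counts. RNA came from sinusoidal endothelial cells of the liver of C57BL/6 mice aged 7 to 8 weeks, captured with magnetic beads against CD146, on day 14 after partial hepatectomy (PHx, removal of part of the liver) or a sham operation. Each group held 3 libraries, numbered 1, 3 and 4, with totals of 38765116 to 51888481 counts. The labels name no genetic change and no drug, and do not say whether the libraries came from separate animals, so p-values measure only the spread between these libraries, which may be technical.

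Endothelin-1 is a vasoconstrictor peptide made largely by endothelial cells. It is cut from its precursor by endothelin-converting enzyme and acts on the type A receptor, which drives contraction of smooth muscle and of hepatic stellate cells, the pericytes of the liver capillary, and on the type B receptor, which on endothelium releases nitric oxide and clears the peptide. Angiotensinogen is secreted by hepatocytes, renin and then angiotensin-converting enzyme turn it into angiotensin II, and the type 1 receptor carries that signal. Both receptor systems work through G proteins of the Gq and G12/13 classes and are known in the liver for control of sinusoidal tone and for activation of stellate cells.

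The receptor transcripts stood higher after PHx, while the precursor and the converting enzymes differed less. Ednra, Ednrb and Agtr1a were each more abundant in every PHx library than in any sham library, by 2.69, 2.997 and 2.49-fold in the fit. Edn1 and Ace were 1.52 and 1.41-fold higher on average with overlapping groups, and Ece1 and Agt were at 0.823 and 0.816 of the sham level. None of the 7 passed edgeR's quasi-likelihood test at a Benjamini-Hochberg adjusted p under 0.05 over the 19033 genes tested, of which 0.862% were called. At an unadjusted p under 0.05 the test gave 3 of the 7, against 12.7% of all tested genes. DESeq2 called the same 3, Ednra, Ednrb and Agtr1a, as higher, against 3.79% of tested genes, and limma-voom called 0. The 3 genes whose PHx libraries lay wholly above sham compare with 10.6% of tested genes. The median log2 fold change was 0.60 over the 7 genes and 0.03 over all tested genes.

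Upstream sequence is shown for the pair of endothelin receptors, whose transcripts moved together, and for the ligand gene. RefSeq starts (GRCm38.p6) were found for 6 of the 7 genes, all but Agtr1a. Each run is the 250 bases before the start, 5′ to 3′ on the gene's strand. Capitals mark a match on either strand to 1 of 6 motifs, of which only the CCAAT box (CCAAT) was found in these windows.
Ednra, chr8:77724453-77724702, minus strand: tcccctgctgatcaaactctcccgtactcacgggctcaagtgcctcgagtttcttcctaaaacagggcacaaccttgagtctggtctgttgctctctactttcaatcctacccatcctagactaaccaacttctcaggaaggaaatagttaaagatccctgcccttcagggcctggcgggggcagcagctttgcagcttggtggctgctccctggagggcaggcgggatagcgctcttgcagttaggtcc
Ednrb, chr14:103843702-103843951, minus strand: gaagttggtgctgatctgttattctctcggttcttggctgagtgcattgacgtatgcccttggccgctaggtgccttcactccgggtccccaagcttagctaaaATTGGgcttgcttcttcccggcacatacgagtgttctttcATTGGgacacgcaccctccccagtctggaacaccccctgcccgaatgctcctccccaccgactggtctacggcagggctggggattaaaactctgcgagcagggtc
Edn1, chr13:42301226-42301475, plus strand: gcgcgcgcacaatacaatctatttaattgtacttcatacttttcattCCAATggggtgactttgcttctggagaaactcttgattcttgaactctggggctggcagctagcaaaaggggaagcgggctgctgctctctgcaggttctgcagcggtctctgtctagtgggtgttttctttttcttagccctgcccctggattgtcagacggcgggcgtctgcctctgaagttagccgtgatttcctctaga
The motifs searched were the TATA box with the letters TATAAA, the core GATAA bound by GATA factors, the AP-1 site with TGANTCA, the GC box with GGGCGG, the CCAAT box, and ACGTG, the core of the hypoxia response element. They do not overlap each other in these windows. The Ednrb window held 2 CCAAT boxes, 142 to 146 and 102 to 106 bases before the start, the Edn1 window held 1, at 199 to 203 bases, and the Ednra window held no match to any of the 6. A CCAAT box was present in 33.8% of 32851 RefSeq windows of this length, so the matches are a description of these letters. The Ednrb start used by RefSeq lies 775 bases inside the deposited span of the gene. GC content was 54.8% for Ednra, 56.8% for Ednrb and 50.4% for Edn1, with a mean of 53.2% over all windows.

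Levels were first compared between the genes as RPKM, which divides counts by transcript length and library size. In sham cells Ece1 was by far the most abundant, at 197 ± 17.1 RPKM (SD, n = 3), followed by Ednrb at 31.6 ± 8.13, Edn1 at 24.5 ± 4.63 and Agtr1a at 20.3 ± 4.75 RPKM. Agt, Ace and Ednra stood lowest, at 8.61 ± 1.48, 6.40 ± 1.41 and 6.19 ± 1.94 RPKM. The sham libraries of Ece1 did not overlap those of any other gene, and those of Agtr1a did not overlap those of Agt, whereas the other neighbours in this order overlapped. After PHx the order was Ece1 (167 ± 26.0), Ednrb (96.8 ± 53.9), Agtr1a (52.3 ± 13.9), Edn1 (38.7 ± 15.9), Ednra (17.0 ± 9.39), Ace (9.32 ± 2.32) and Agt (7.25 ± 2.62 RPKM). Here the neighbours overlapped except Edn1 and Ednra, whose nearest libraries were at 27.9 and 27.8 RPKM. In PHx 4 the receptor transcript Ednrb, at 158 RPKM, exceeded Ece1, at 142 RPKM. Agtr1a was below Edn1 in all sham libraries and above it in all PHx libraries, with a near tie in each group. Sham 3 had 20.2 RPKM for Agtr1a and 20.6 for Edn1, and PHx 1 had 58.8 and 57.0 RPKM.

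**Figure D1:**
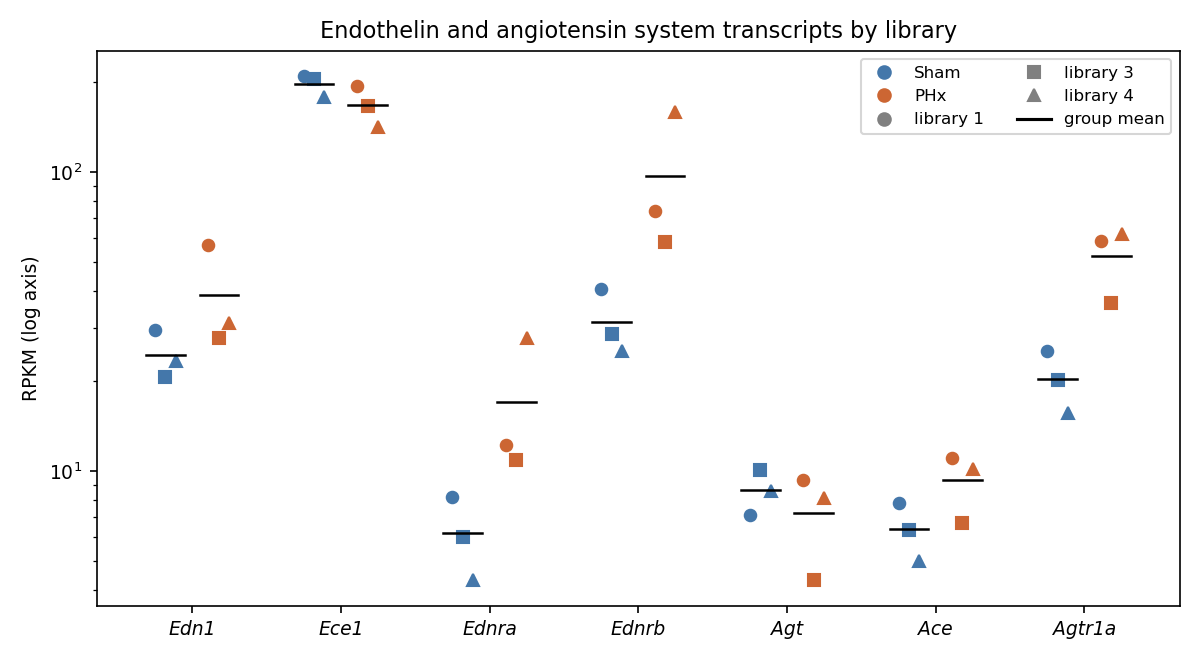
Length-corrected level (RPKM, log axis) of the 7 genes in each library, with sham in blue, PHx in orange, the library number by symbol and group means as black bars. Ednra, Ednrb and Agtr1a are the genes whose PHx points all lie above the sham points, and each of them is highest in PHx 4.

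Edn1, the ligand gene (chr13:42301476-42307990, mm10, plus strand), was measured at 65.0, 44.1 and 50.5 CPM in Sham 1, 3 and 4. CPM is the count scaled by the library total and by edgeR's scaling factor for that library (TMM). The PHx values were 114, 60.7 and 67.3 CPM in PHx 1, 3 and 4. PHx 1 was the high library, and PHx 3 lay within the sham range. This gave a log2 fold change of 0.60 ± 0.27 (SE), with an edgeR adjusted p of 0.413, which became 0.26 in log2 fold change without PHx 1. An antisense gene overlapping Edn1 had 4 to 49 counts per library against at least 2281 for Edn1. Every other member but Agt also had an overlapping gene. For Ednra, with at least 784 counts, LOC105243223 on the opposite strand had 11 to 141 and 4933431K23Rik had 2 to 32. For Agtr1a, with at least 1910 counts, an intronic gene on the same strand had 47 to 118. The use of strand in counting was not given in the sources used here, so reads of the overlapping partners cannot be told apart.

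Ece1, which encodes the enzyme that cuts big endothelin to the active peptide (chr4:137862212-137965229, plus strand), stood at 1073, 1022 and 895 CPM in Sham 1, 3 and 4 and at 908, 839 and 714 CPM in PHx 1, 3 and 4. PHx 1 exceeded Sham 4, so the groups overlapped. On the log2 scale the difference was -0.28 ± 0.15, with an edgeR adjusted p of 0.472. Ece1 remained several times more abundant than its substrate's transcript: the RPKM ratio of Ece1 to Edn1 was 7.07 to 9.93 in sham (7.59 in Sham 4), and it was 3.40 in PHx 1, 5.92 in PHx 3 and 4.54 in PHx 4, so that the PHx ratios all lay below the sham ratios. That ratio was looked at after the values were seen and was not tested.

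Ednra, the type A receptor gene (chr8:77663029-77724452, minus strand), had 30.6, 22.1 and 15.9 CPM in Sham 1, 3 and 4. After PHx it had 41.9, 40.2 and 102 CPM in PHx 1, 3 and 4. The groups did not overlap, and PHx 4 was more than the other PHx libraries combined. The log2 fold change was 1.43 ± 0.45, with an adjusted p of 0.295 in edgeR and 0.00900 in DESeq2, and over all 14 alternatives the adjusted p ran from 0.00900 to 0.675. Without PHx 4 the log2 fold change was 0.85 (edgeR adjusted p = 0.332).

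Ednrb, the type B receptor gene (chr14:103814615-103844476, minus strand), followed the same libraries at a higher level. It had 182, 126 and 111 CPM in Sham 1, 3 and 4, and then 302, 257 and 696 CPM in PHx 1, 3 and 4. Again no PHx library fell within the sham range, and PHx 4 stood apart. The log2 fold change was 1.58 ± 0.43, with an adjusted p of 0.227 in edgeR and 0.000950 in DESeq2, and a range of 0.000950 to 0.604 over the 14 alternatives. Without PHx 4 it was 1.003 (edgeR adjusted p = 0.137). PHx 4 was also the library with the highest summed neutrophil markers, 3800 CPM over 7 genes against 22.0 to 552 CPM in the other libraries, while PHx 3, at 23.003 CPM of these markers, also had more Ednra and Ednrb than any sham library. The part of the neutrophil signal in the PHx 4 values was not tested.

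The balance between the endothelin receptors overlapped between the groups. Ednrb exceeded Ednra by 4.97, 4.77 and 5.83-fold on the RPKM scale in Sham 1, 3 and 4 and by 6.03, 5.35 and 5.70-fold in PHx 1, 3 and 4. Type B thus made up 82.7% to 85.4% of the summed receptor RPKM in sham and 84.2% to 85.8% after PHx, and the ranges overlapped. The log2 ratio of Ednra to Ednrb differed by -0.14 between the groups (exact two-sided permutation p = 0.3, adjusted p = 0.45 over 9 comparisons), where 3 libraries against 3 cannot give a p below 0.10.

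Agt, which encodes angiotensinogen (chr8:124556587-124569707, minus strand), was at 13.5, 18.6 and 15.9 CPM in Sham 1, 3 and 4 and at 16.1, 8.04 and 15.1 CPM in PHx 1, 3 and 4. PHx 3 was the low library, while PHx 1 and PHx 4 lay within the sham range. The log2 fold change was -0.29 ± 0.27 (edgeR adjusted p = 0.673), and it was -0.05 without PHx 3 and -0.48 without PHx 1. Markers of hepatocytes, the cells known to secrete angiotensinogen, moved with it: their 14 genes summed to 1549, 2163 and 1907 CPM in Sham 1, 3 and 4 and to 1719, 782 and 1610 CPM in PHx 1, 3 and 4, with Alb at 971 CPM in sham and 710 CPM after PHx and Apoa1 at 96.1 and 60.7 CPM. None of the 14 was called by edgeR, their median log2 fold change was -0.36, and Cyp3a11 was higher after PHx, at 14.7 and 19.2 CPM. Agt was also measured against the mean of the hepatocyte list within each library. It lay between -2.17 and -2.01 log2 units in sham and between -2.12 and -1.81 after PHx, a difference of 0.13 (exact permutation p = 0.3, adjusted p = 0.45).

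Ace, the gene of the enzyme that makes angiotensin II (chr11:105967945-105989964, plus strand), had 42.5, 33.8 and 26.7 CPM in Sham 1, 3 and 4 and 55.0, 35.9 and 54.4 CPM in PHx 1, 3 and 4. PHx 1 and PHx 4 were above all sham libraries and PHx 3 was within them. Its log2 fold change was 0.50 ± 0.22 (edgeR adjusted p = 0.408), and it was 0.31 without Sham 4. The markers of large-vessel and arterial endothelium, where Ace is well known, include Vwf and Efnb2. Their 9 genes summed to 2500, 1862 and 1378 CPM in Sham 1, 3 and 4 and to 2732, 1582 and 2978 CPM in PHx 1, 3 and 4, none was called, and their part in the Ace values was not tested. Selp, a selectin gene of that list named here after its values were seen, supplied 1065 CPM of the sum in PHx 4 and 78.8 to 159 CPM in the other libraries, and without it PHx 4 summed to 1913 CPM.

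Agtr1a, the gene of the main angiotensin II receptor (chr13:30336356-30382867, plus strand), came closest to the threshold of the 7. It was measured at 63.4, 49.6 and 38.8 CPM in Sham 1, 3 and 4 and at 135, 90.5 and 153 CPM in PHx 1, 3 and 4. Every PHx library was above every sham library, and the PHx values were less spread than those of the endothelin receptors. The log2 fold change was 1.32 ± 0.25, with an adjusted p of 0.0730 in edgeR and 3.52e-05 in DESeq2, and the range over 14 alternatives was 3.52e-05 to 0.339. Besides DESeq2, it passed in edgeR with no filter on low counts (adjusted p = 0.0425) and without PHx 3 (adjusted p = 0.0447). The closely related receptor gene Agtr1b had 0 counts in all libraries, which allows up to 0.0579 to 0.0795 CPM by counting error alone, as did the type 2 receptor gene Agtr2.

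Markers of stellate cells, which are known to carry these receptors, were higher in the PHx libraries. Which cells the receptor transcripts came from here was not tested. Of 12 stellate cell and fibroblast markers 8 rose in edgeR's test and none fell, where 0.846% of all tested genes were called higher. Their summed level was 1781 to 2306 CPM in sham and 5313 to 6740 CPM after PHx. Within these sums Col1a1, Col1a2 and Col3a1 averaged 93.8, 128 and 229 CPM in sham and 857, 875 and 1305 CPM after PHx. Dcn averaged 669 CPM in sham and 1467 CPM after PHx. Neither Col1a1 nor Dcn was among the called markers (edgeR adjusted p = 0.0669 and 0.0826). None of the 12 was at 0. Lrat, the retinoid-storing enzyme of stellate cells, rose from 80.4 to 152 CPM (adjusted p = 0.0400), and Reln was at 509 and 734 CPM (adjusted p = 0.380). Of 7 smooth muscle markers 4 rose, with sums of 56.3 to 71.3 and 137 to 177 CPM, and Des is on both lists. The 10 endothelial and sinusoidal markers, none of them at 0, summed to 27173 to 29896 CPM in sham and 15509 to 23410 CPM after PHx, with Pecam1 at 1478 and 1275 CPM and Cdh5 at 2042 and 1616 CPM. None of these 10 was called, 9 had PHx libraries wholly below sham, against 9.96% of all tested genes, and Lyve1 was at 478 and 533 CPM with overlapping groups. In bulk RNA a change in the number of cells of a type and a change in RNA per cell cannot be told apart.

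Set against the stellate list within each library, the receptors overlapped between the groups. The difference between Ednra and the mean of that list was -1.69, -1.997 and -2.40 log2 units in Sham 1, 3 and 4, against -2.64, -2.77 and -1.57 in the corresponding order of PHx libraries. For Ednrb the values were 0.88, 0.51 and 0.40 in the sham group and 0.21, -0.10 and 1.198 in the PHx group, and for Agtr1a -0.64, -0.83 and -1.12 and then -0.95, -1.61 and -0.99. The group differences were -0.30, -0.16 and -0.32 (exact permutation p = 0.6, 0.8 and 0.4, adjusted p = 0.675, 0.8 and 0.514 over 9 comparisons), and that of Ednrb was 0.11 without PHx 3. Without PHx 4 the differences of Ednra and Ednrb were -0.68 and -0.54 (exact permutation p = 0.2 and 0.1, where 0.1 is the smallest that 3 against 2 can give), and both remaining PHx libraries lay below all sham libraries for Ednrb and for Ednra. Without PHx 3 the differences of Ednra and Agtr1a were -0.07 and -0.11. PHx 4 was the highest PHx library for Ednra and Ednrb on this scale also, although its stellate sum of 6460 CPM was below the 6740 CPM of PHx 3. These differences depend on the genes in the list, whose 12 markers had a median log2 fold change of 1.47. Col1a1, Col1a2 and Col3a1 were at 3.19, 2.78 and 2.51, and Lrat and Reln at 0.92 and 0.53. A list without the collagen genes was not tried.

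Set against the endothelial list, Edn1 and Ednrb had PHx libraries wholly above sham. Edn1 lay at -5.32 ± 0.27 log2 units in sham and -4.27 ± 0.63 after PHx, a difference of 1.04, and Ednrb at -3.94 ± 0.34 and -1.99 ± 1.02, a difference of 1.95. Both had an exact permutation p of 0.1, the smallest that 3 against 3 can give, and an adjusted p of 0.45. Ace differed by 0.97 (p = 0.2) and Ece1 by 0.20 (p = 0.3) with overlapping groups, by the same exact test and with the same adjusted p. The lower level of the endothelial list in the PHx libraries, with a median log2 fold change of -0.50, enters each of these differences. Taken alone, Edn1 had a log2 fold change of 0.60 with overlapping groups, and Ednrb 1.58.

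**Figure D2:**
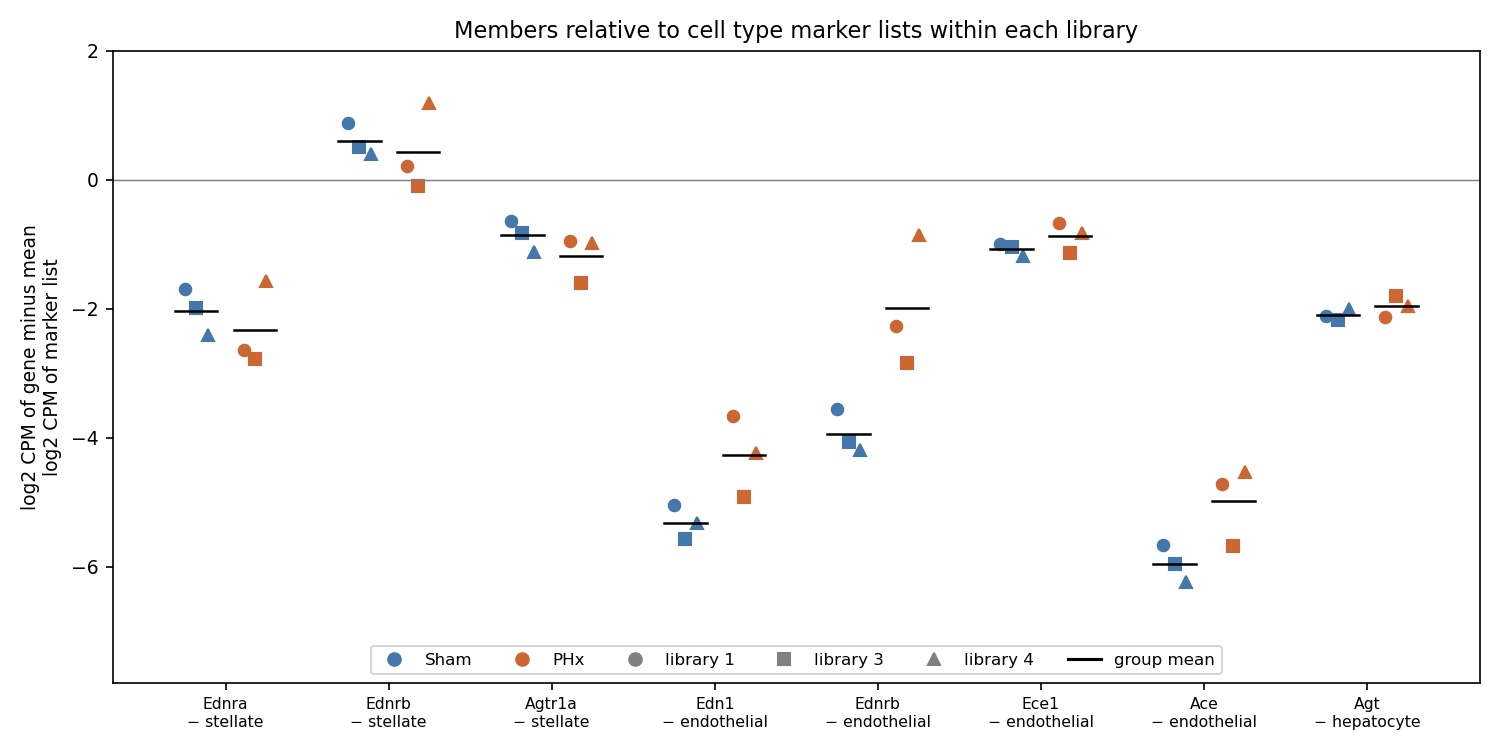
Log2 CPM of each gene minus the mean log2 CPM of a marker list in the same library, with sham in blue, PHx in orange and group means as black bars. The receptors overlap between groups relative to the stellate cell and fibroblast list (group differences of -0.30, -0.16 and -0.32), while Edn1 and Ednrb lie higher after PHx relative to the endothelial list (1.04 and 1.95).

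The genes with the most similar profile over the 6 libraries were found by Pearson's r of log2 CPM among 11036 genes with a mean of at least 5 CPM, which with so few libraries is a description. For Ednra these were Crispld2 (r = 0.999), Serpina3b (0.994) and Ednrb itself (0.991). For Ednrb they were Edem1 (0.995), Arap2 (0.995) and Cygb (0.992), the cytoglobin gene. Agtr1a was closest to Susd2 (0.998), Pth1r (0.998), the parathyroid hormone receptor gene, and Dlg4 (0.997). Edn1 was closest to Hist1h2bc (0.984), Map3k7 (0.978) and Lmo7 (0.977), Ece1 to Sf3b3 (0.999), Card10 (0.994) and Dock6 (0.993), Agt, among those reported, to Aldh1l1 (0.991) and Fkbp2 (0.991), and Ace to Mgat4a (0.991), Tmem176a (0.991) and Flna (0.989). Ednrb was the only one of the 7 to be named by this rule for another of them.

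Of 5 further endothelin genes 3 were tested and none passed. Mme, the gene of neprilysin, which degrades endothelin and angiotensin peptides, was at 3.53 ± 1.06 CPM in sham and 6.52 ± 2.37 CPM after PHx (log2 fold change 0.88 ± 0.35, edgeR adjusted p = 0.363), and its log2 fold change was 0.57 without PHx 1. Ece2, a second converting enzyme gene, was at 3.40 and 3.43 CPM (0.01 ± 0.28), and Edn2 was at 0.144 and 0.322 CPM. Edn3 averaged 0.00644 CPM in sham and 0.00682 CPM after PHx, below the level that a count of 0 allows, and was not tested.

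Of 20 further renin-angiotensin genes 14 were tested and 0 passed in edgeR, where 0.862% of all tested genes were called. At an unadjusted p under 0.05 the same test gave 3, against 12.7% of all tested genes. DESeq2 called 1 of the 14, as higher, against 3.79% of all tested genes called higher. The median log2 fold change of the 14 was -0.06. Enpep, the gene of the aminopeptidase that trims angiotensin II, was the most abundant at 70.7 RPKM over all libraries. It stood at 358, 371 and 366 CPM in Sham 1, 3 and 4 and at 225, 317 and 154 CPM in PHx 1, 3 and 4, so that all PHx libraries were lower, with the lowest in PHx 4 (log2 fold change -0.65 ± 0.24, edgeR adjusted p = 0.333). It was -0.43 without PHx 4 and -0.95 without PHx 3 (edgeR adjusted p = 0.447 and 0.0731). Prcp, a carboxypeptidase gene whose enzyme also acts on angiotensin II, was the gene called by DESeq2, at 80.2 ± 4.95 and 116 ± 17.9 CPM (0.54 ± 0.13, adjusted p = 0.143 in edgeR, 0.0263 in DESeq2 and 0.0263 to 0.549 over its alternatives). Rnpep was at 93.0 and 88.8 CPM. Ren1, the renin gene, had a count of 0 in all sham libraries and in PHx 1, 7 counts (0.143 CPM) in PHx 3 and 1 count in PHx 4.

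**Figure D3:**
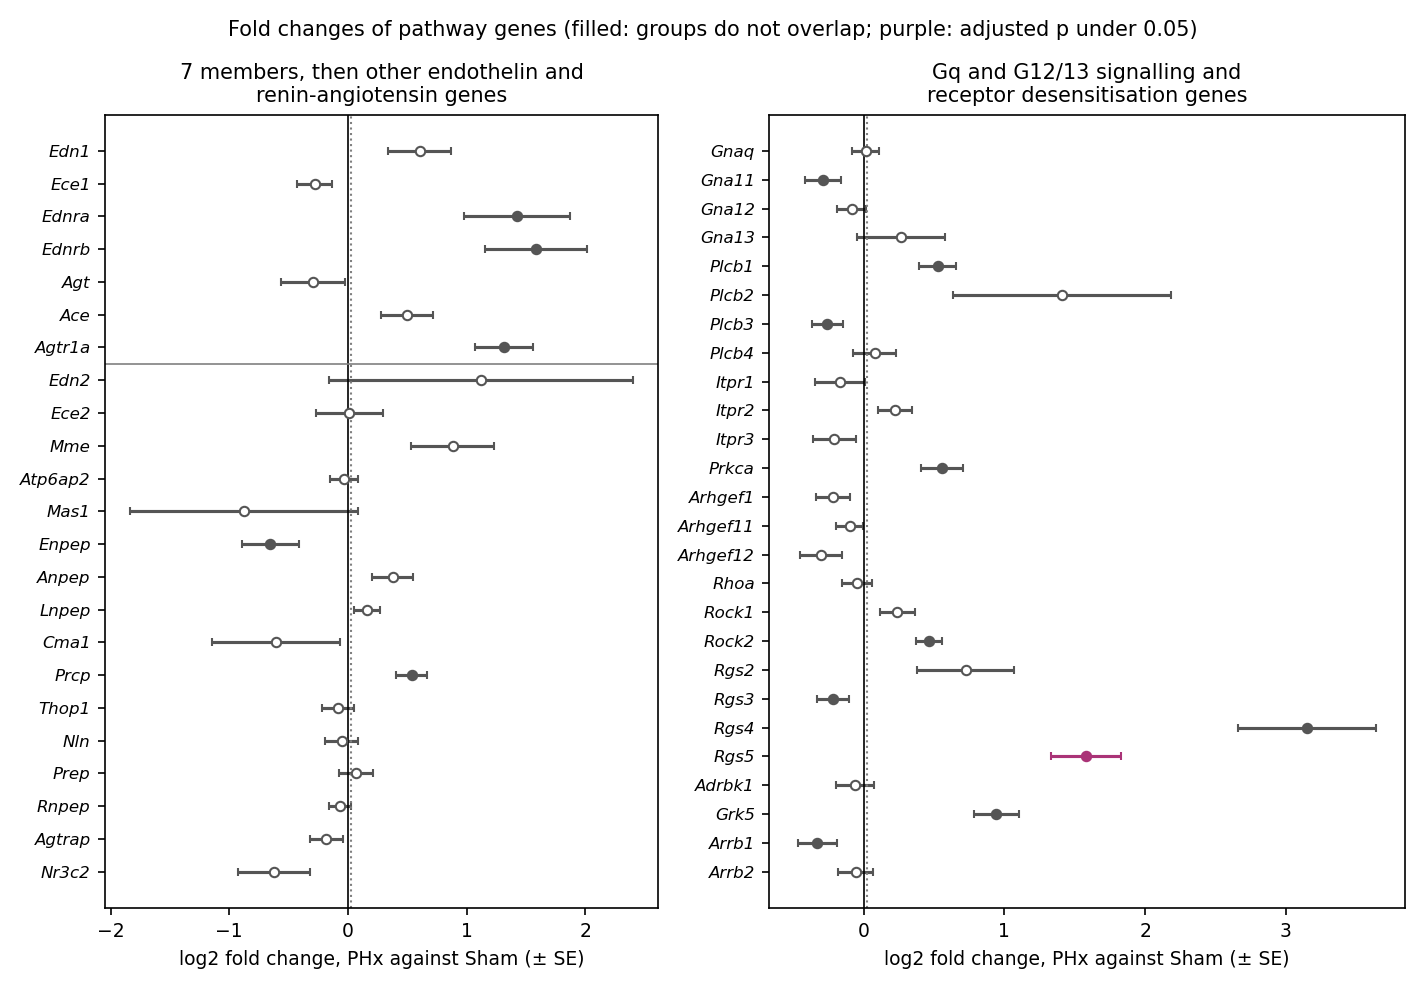
Log2 fold change of PHx against sham with its SE for the 7 genes and other tested genes of both axes (left) and for genes of Gq and G12/13 signalling (right); filled points mark groups without overlap, purple marks an adjusted p under 0.05 and the dotted line the median of all tested genes (0.03). The receptor genes and Rgs4 and Rgs5 stand to the right, as do Plcb2 (1.41 ± 0.77) and Edn2 (1.12 ± 1.28), whose groups overlap. Rgs5 (1.58) is the gene marked purple.

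Among 26 genes of Gq and G12/13 signalling and receptor desensitisation, all tested, 1 rose, none fell and 25 did not pass, where 0.846% of all tested genes were called higher. The list median was -0.02, and 13 members had a positive and 13 a negative log2 fold change. The gene that rose was Rgs5, a regulator that shortens Gq signalling and is abundant in pericytes, at 243, 184 and 161 CPM in Sham 1, 3 and 4 and 459, 509 and 793 CPM in PHx 1, 3 and 4 (log2 fold change 1.58 ± 0.25, edgeR adjusted p = 0.0418). That call held without PHx 4 (adjusted p = 0.0311) and was lost without Sham 1, Sham 3, Sham 4, PHx 1 or PHx 3 (0.102, 0.243, 0.220, 0.0598 and 0.0641) and with the replicate number as a block (0.206), within a range of 1.48e-07 to 0.243 over all 14 alternatives. The groups did not overlap for 10 of the 26, with 6 higher after PHx, against 10.6% of all tested genes, and 4 lower, against 9.96%. The 4 lower genes, Arrb1, Gna11, Plcb3 and Rgs3, did not pass the test, and Arrb1, a beta-arrestin gene, was at 647 ± 84.0 and 516 ± 24.2 CPM. Of the most abundant members per length, Rhoa was at 352 ± 12.1 and 341 ± 24.3 CPM, Arrb2, the other beta-arrestin gene, at 250 ± 20.2 and 239.9 ± 28.4 CPM, and Gna12 at 195 ± 2.12 and 184 ± 14.5 CPM.

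A further 3 genes of that list were chosen after their values were seen. Rgs4, another regulator of Gq signalling, was at 8.40, 3.999 and 5.04 CPM in Sham 1, 3 and 4 and at 39.8, 30.9 and 83.7 CPM in PHx 1, 3 and 4 (log2 fold change 3.15 ± 0.49, edgeR adjusted p = 0.0608). Grk5, a receptor kinase gene, was at 31.4 ± 4.41 and 60.3 ± 10.0 CPM (adjusted p = 0.0515), and Rock2 at 114 ± 3.36 and 158 ± 8.05 CPM (0.0794, both by edgeR). DESeq2 called these 3 and Rgs5, Plcb1 and Prkca, so 6 of 26 in all, against 3.79% of all tested genes called higher by DESeq2. As with Ednra and Ednrb, Rgs4 and Rgs5 were highest in PHx 4, at 14.4 and 4.04 times their sham means, against 4.47 for Ednra and 4.98 for Ednrb. Agtr1a and Grk5 were also highest in PHx 4, at 3.02 and 2.14 times, though closer to PHx 1, at 2.67 and 2.07 times.

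**Figure D4:**
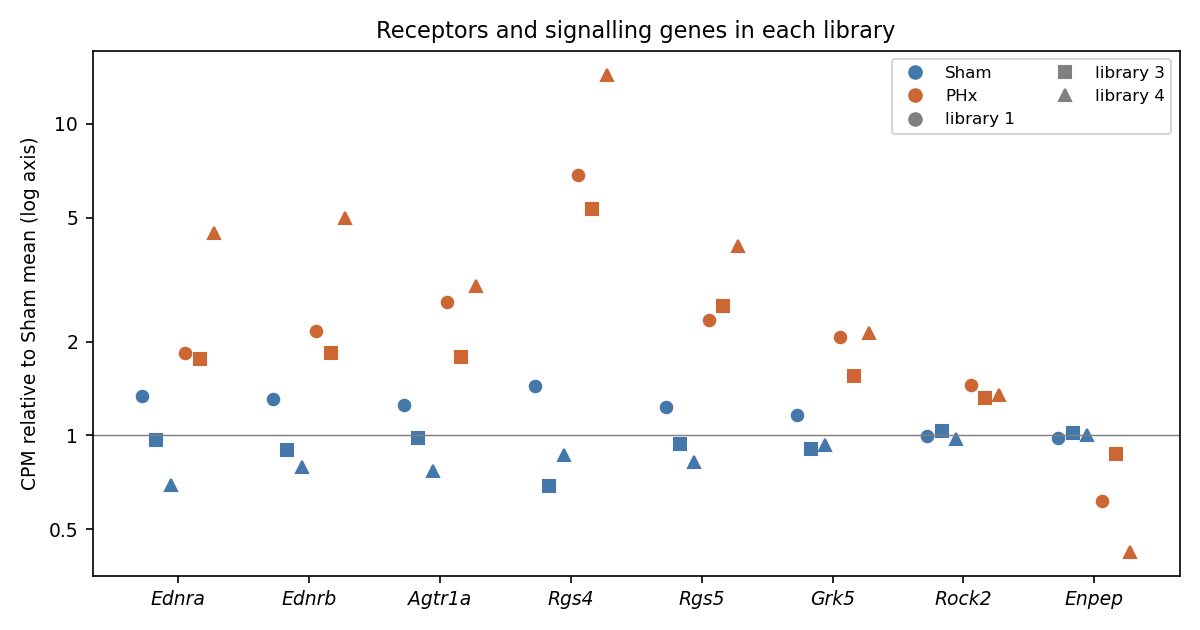
CPM of 8 genes in each library relative to the sham mean (log axis), with sham in blue and PHx in orange; Rgs4, Grk5, Rock2 and Enpep were picked for display after their values were seen. Ednra, Ednrb, Rgs4 and Rgs5 reach 4.47, 4.98, 14.4 and 4.04 times their sham mean in PHx 4, and Enpep is lowest there at 0.423.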

How the data were processed

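Counts and RPKM values per gene and library were taken from the table the authors deposited. Per the submitters' processing notes, reads went through bcl2fastq and TopHat2 2.0.13, and the build was mm10 (GRCm38). For the counter, annotation release and strand use, nothing was given in the sources used here. The deposited RPKM values equalled count over gene length and library total for 100% of values (relative tolerance 1e-06). The comparisons between genes by RPKM therefore rest on the deposited length. 27 gene names turned into dates were restored by gene number.

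The test on counts was that of edgeR 4.0.16, run in R 4.3.3 (TMM scaling, filterByExpr, robust quasi-likelihood F-test, group only), with Benjamini-Hochberg adjustment over 19033 genes and a threshold of 0.05. SE is the absolute log2 fold change over the square root of F. Alternatives used DESeq2 1.42.0, limma 3.58.1, other scalings and filters, the replicate number as a block, and each library left out. The code was tested on simulated counts. Marker comparisons used log2 CPM with a prior count of 2 and exact permutation tests. Floors of 3 counts cover counting error only.

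Named genes were the 7 members, every called gene and the 3 most abundant (RPKM) of each pathway list, the 3 closest profiles per member and the 2 first markers of the lists discussed. A few genes that this rule names, or that the lists hold, are not reported here. Members and lists were chosen with earlier results of these data known. Kupffer cell and mesothelial marker sums were 103 to 434 and 23.2 to 43.7 CPM in sham and 94.5 to 149 and 74.5 to 114 CPM after PHx.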

Additional observations from a re-analysis of the deposited data

How the results depend on the processing

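The sign of the log2 fold change of all 7 genes held under all 14 alternatives. Scaling by median-of-ratios or upper-quartile factors or library totals, the filter of 5 CPM, limma-voom and the replicate block called 0 of the 7. With no filter on low counts Agtr1a was called at 1.29, so 1 of the 7, and DESeq2 called 3, Ednra, Ednrb and Agtr1a at 1.42, 1.58 and 1.31. Calls among the other pathway genes numbered 2 with median-of-ratios, 2 with upper-quartile factors, 3 with library totals, 2 with no filter, 4 with the 5 CPM filter, 7 with DESeq2 and 0 with the replicate block. All genes called higher and lower were 161 and 3, and became 359 and 30 with no filter, 721 and 126 with DESeq2 and 14 and 1 with the replicate block; the cause was not tested. Libraries sharing a number showed correlations of -0.09, -0.23 and 0.03 in their deviations from the group means. These values cannot settle whether the number pairs the libraries, as libraries of different number were not compared in this way. The block moved the pathway count from 1 to 0 by the loss of Rgs5. Leaving out each library gave 0 to 160 higher and 0 to 9 lower genes, 0 to 1 of the 7, 0 to 2 other pathway genes, 1.12 to 1.503 for Agtr1a, and -0.54 to 0.11 for Ednrb relative to the stellate list, which turned positive without PHx 3. Among genes near 0, Ece2 was at -0.024 with upper-quartile factors, -0.017 with no filter, -0.0095 with limma-voom and -0.0090 with the block, and ranged from -0.12 to 0.19 on leaving out libraries. On leaving out libraries Rhoa ranged from -0.095 to 0.00016 and Arrb2 from -0.14 to 0.023. With 3 libraries a group the exact tests cannot pass 0.05.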
